A study of Mus musculus with 28 samples.

Results

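Kidney cortex of mice without a working vitamin D receptor was compared with that of wild-type mice, across every gene the tissue expressed. The 10 libraries were chosen by their titles, 4 of Vdr-/- kidney (KO) and 6 of Vdr+/+ kidney (WT), out of 28 libraries in the series. All mice were females of 8 weeks and ate TD.96348, a chow with added calcium, phosphate and lactose that the file headers call a rescue diet. The headers also name the null line, "demay". A further 4 kidney libraries came from Vdr AF2 mice (AF2), whose receptor lacks activation function 2, the surface that recruits coactivators. They share the estimate of the spread and are used for one comparison at the end. The study set absent receptor signalling against signalling without coactivators, and asked what each does to mineral balance. The sources used here give neither the strain, nor the deleted part of the gene, nor whether each library is 1 mouse, so p-values measure the spread between these libraries.

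The vitamin D receptor is a nuclear receptor that binds the hormone 1,25-dihydroxyvitamin D, pairs with the retinoid X receptor and switches target genes on or off. The kidney is both the main source of the circulating hormone and one of its targets. Proximal tubules make it with Cyp27b1 and destroy it with Cyp24a1, and in normal animals the receptor raises Cyp24a1 and lowers Cyp27b1. Distal tubules reclaim calcium through the channel Trpv5, the calbindins S100g and Calb1, and the pumps and exchangers of the basolateral side.

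Library totals were 3927332 to 6492228 counts in KO and 3725648 to 5788528 counts in WT. Every count was even, so each read was taken to be counted 2 times, for a reason that is not given. The defining markers of cortex (Slc34a1, Lrp2, Umod, Slc12a3 and Aqp2) were found in every library. Of markers of the adrenal cortex, which lies against the kidney, 0 of 8 passed the expression filter, and Cyp11b1, Cyp21a1, Hsd3b1 and Nr5a1 were at 0 in KO and WT. WT 1 stood apart in immune genes: the summed level of 23 immune cell markers was 394 to 520 CPM (counts scaled to the size of the library) in KO, and 2656 in WT 1, against a WT median of 497. The summed level of 10 adipose tissue markers was 358 to 618 CPM in KO and 598 to 976 CPM in WT, and 0 of the 4 tested were called. AF2 4 lay apart from all other libraries on the first principal component (63.7, against -35.4 to 11.1). Fewer cells of a type and less RNA per cell cannot be told apart in such bulk samples. The library codes form runs of consecutive numbers, and 1 run holds the 4 KO libraries with WT 3 and WT 4. No other KO and WT libraries share a run.

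Vdr, which the null allele targets, spans 97854425 to 97910630 of chromosome 15 (GRCm38, minus strand). It had 22.1, 21.0, 17.1 and 7.94 CPM in KO 1 to KO 4, against a lowest, median and highest of 177, 201 and 212 CPM in WT. The groups were far apart, and every KO library matched its label. Vdr was lower in KO by -3.54 ± 0.20 on the log2 scale (SE, adjusted p = 1.62e-10). Reads were taken from the 3′ ends of transcripts, and reads from a transcript whose 3′ end lies outside the deleted part would still be counted.

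Of 13502 genes tested, 114 (0.844%) were called at an adjusted p under 0.05, 39 (0.289%) higher and 75 (0.555%) lower in KO. Changes over 2-fold numbered 12 upward and 33 downward. KO and WT libraries did not overlap for 99 of the 114 called genes, and for 3.44% of all genes tested. The calls come from these same libraries, so the separation of called genes is largely built in. The median log2 fold change of all genes was -0.0039, and 50.6% lay below 0. Called genes included Cyp27b1 and Cyp24a1 of hormone turnover, the calbindin S100g, the transcription factors Etv1 and Etv5, and the histidine enzymes Uroc1, Amdhd1 and Ftcd. The gene lists below were chosen with earlier results of these data known. Their counts of calls stand beside 0.844% of all genes and do not measure enrichment.

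The number of calls rested on single libraries. It was 38 without KO 4, 44 without KO 3, 66 without WT 2, 70 without KO 2 and 206 without AF2 4. Of the 114 calls, 30 were kept in each of the 14 fits that left out 1 library. Within the run shared by KO and WT 3 and WT 4, the direction was the same for all 114. The unadjusted edgeR p was under 0.05 for 111 of them. The 114 were chosen in a fit that held these same libraries, so this agreement is largely built in and is no separate support. Called within that run were 25 genes, 24 of them among the 114. Those 24 were Vdr, Cyp24a1, S100g, Methig1, Etv1, Etv5, Nepn, Uroc1, Amdhd1, Ftcd, Glul, Cyp2d9, Slc22a8, Col12a1, Smagp, Scd1, Defb1, Defb29, Aoah, Rdh16f2, Ppp1r16b, Txnrd3, Gm10639 and AW822252.

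**Figure D1:**
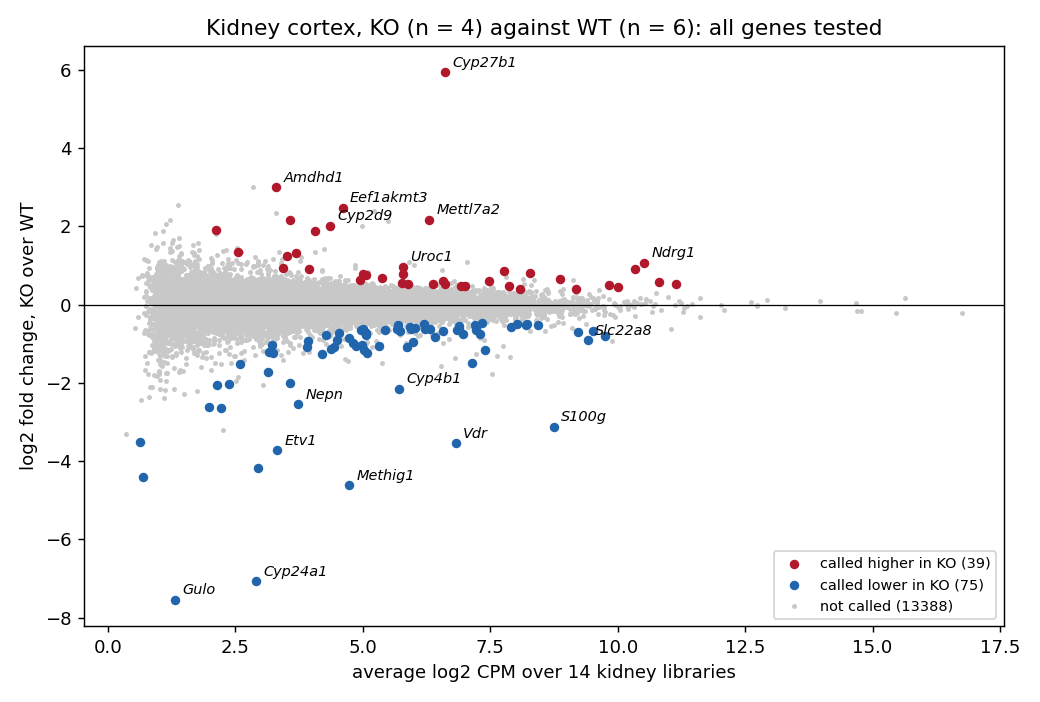
Each point is 1 of 13502 genes tested, with its average log2 CPM over the 14 kidney libraries across and its log2 fold change, KO over WT, upward. The 39 genes called higher are red and the 75 called lower are blue, and Cyp27b1 (5.93) lies above all other called genes.

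Transcripts of the enzyme that makes the hormone rose, and those of the enzyme that destroys it nearly vanished. Cyp27b1, the 1-alpha-hydroxylase, had 48.4, 90.1, 155 and 166 CPM in KO 1 to KO 4, against a lowest, median and highest of 0.733, 1.74 and 3.46 CPM in WT. The lowest KO library was well above every WT library, and the KO libraries differed widely among themselves. The log2 fold change was 5.93 ± 0.78 (adjusted p = 0.00445). The call was lost with limma-voom, with the replicate numbers as a block, and within the shared run, where the log2 fold change was 6.48 with an adjusted p of 0.257. Cyp24a1, the 24-hydroxylase that starts breakdown of the hormone, had 0, 0.412, 0 and 0 CPM in KO, against 8.42, 12.9 and 36.3 CPM in WT. That is 1 read in all KO libraries together and 233 reads in all WT libraries together. The WT level was 167 times the KO level, with a 95% counting interval of 29.7 to 6630 that covers counting error only, and the adjusted p was 5.09e-06. Of 11 genes tested for vitamin D metabolism and uptake, Cyp27b1 was the 1 called higher and Cyp24a1 the 1 called lower. The other 9, among them Lrp2, the endocytic receptor that reclaims vitamin D with its carrier, were not called, and the list's median log2 fold change was -0.04.

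The promoters of Cyp27b1, whose transcripts rose, and S100g, whose transcripts fell, are shown. Both genes are called members of the mineral lists with an entry in the promoter table. Both are RefSeq sequence on GRCm38.p6, from 250 bases before to 50 bases after the start site. Cyp27b1 is at chr10:127047996-127048295 on the plus strand and S100g at chrX:162964550-162964849 on the minus strand.
Cyp27b1: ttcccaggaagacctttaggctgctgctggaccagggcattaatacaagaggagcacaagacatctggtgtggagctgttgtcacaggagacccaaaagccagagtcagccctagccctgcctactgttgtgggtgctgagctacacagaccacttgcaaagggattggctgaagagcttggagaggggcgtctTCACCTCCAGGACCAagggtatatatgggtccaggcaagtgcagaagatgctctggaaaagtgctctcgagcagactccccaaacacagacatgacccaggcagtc
S100g: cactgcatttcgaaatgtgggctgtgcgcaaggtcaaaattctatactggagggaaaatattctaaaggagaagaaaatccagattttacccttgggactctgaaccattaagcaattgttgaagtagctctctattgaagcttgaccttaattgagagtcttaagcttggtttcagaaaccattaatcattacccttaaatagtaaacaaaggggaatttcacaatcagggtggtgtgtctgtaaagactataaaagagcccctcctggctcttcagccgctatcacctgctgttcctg
Capitals mark the window closest to the DR3 element, the form of site the receptor favours, searched on both strands as 2 hexamers with 3 bases between. Each hexamer began with A or G, followed by G, by G or T, by T, by C or G, and by A. The Cyp27b1 window, on the minus strand, had 2 mismatched bases, and no window of S100g had 2 or fewer. Of 32851 promoters in the table, 48.3% held a window with up to 2 mismatches, 5.98% with up to 1 and 0.256% with none. Of 121 promoters of 85 called genes, 56.2% held one with up to 2 mismatches, 5.79% with up to 1 and 0 with none. Such matches describe letters in a short window and do not locate a binding site.

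One neighbour of Cyp27b1 on chromosome 10 was also called higher. Eef1akmt3, a lysine methyltransferase of the elongation factor eEF1A, had 17.5, 12.3, 40.4 and 37.1 CPM in KO, against 1.68, 4.95 and 7.22 CPM as lowest, median and highest in WT. The groups did not overlap, and KO 3 and KO 4 were the highest KO libraries in both genes, while KO 1 and KO 2 stood in opposite order. AF2 4 was the lowest AF2 library for Cyp27b1 (21.5 CPM) and the highest for Eef1akmt3 (56.8 CPM). The log2 fold change was 2.48 ± 0.33 (adjusted p = 0.000963), but 2.13 with an adjusted p of 0.164 within the shared run. Eef1akmt3 lies on the strand opposite to Cyp27b1, with 6737 bases between them. Mettl1, which lies between them and overlaps the edge of Eef1akmt3, was 0.09 ± 0.17 (adjusted p = 0.905). None of the other 6 neighbours tested (Tsfm, March9, Cdk4, Tspan31, Os9 and Ctdsp2) was called, with log2 fold changes of -0.31 to 0.02. The use of strand in counting is not given, so reads in regions where these genes overlap cannot be assigned with certainty.

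**Figure D2:**
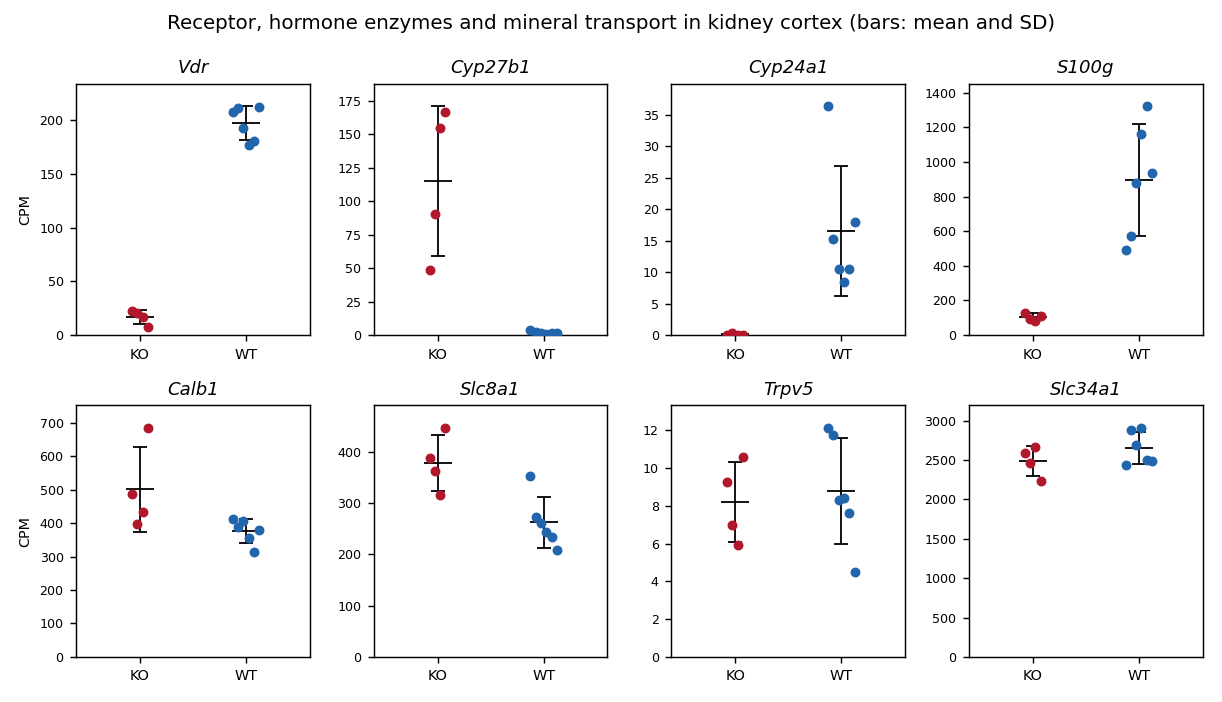
Points are single libraries in CPM on linear axes that start at 0, KO left and WT right, with the mean and SD. Vdr, Cyp24a1 and S100g are lower and Cyp27b1 is higher in all 4 KO libraries than in any WT library, while Calb1, Slc8a1, Trpv5 and Slc34a1 overlap between the groups.

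Of the calcium reabsorption machinery, S100g was called, and Slc8a1 and Calb1 were called in some alternatives. S100g, calbindin-D9k, a carrier of calcium through the cytosol, had 129, 93.0, 79.1 and 112 CPM in KO, against 492, 907 and 1320.5 CPM as lowest, median and highest in WT. The groups were separate, with a log2 fold change of -3.12 ± 0.31 (adjusted p = 0.000376), and the call held in each of 22 alternatives. Calb1, calbindin-D28k of the distal tubule, had 489, 399, 433 and 685 CPM in KO, against 314, 385 and 413 CPM in WT. KO 2 lay within the WT range, and the log2 fold change of 0.41 ± 0.12 did not pass (adjusted p = 0.105, but 0.0134 without the low-count filter). Slc8a1, the sodium-calcium exchanger, had 387, 363, 315 and 445 CPM in KO, against 208, 252 and 352 CPM in WT (log2 fold change 0.53 ± 0.15, adjusted p = 0.124). The groups overlapped in KO 3, and Slc8a1 was called without WT 1 (adjusted p = 0.0192), without AF2 4 (0.0147), with KO and WT libraries alone (0.022) and without the low-count filter (0.00035). Trpv5, the apical calcium channel, had 5.90 to 10.6 CPM in KO and 4.48 to 12.1 CPM in WT, and Atp2b1, a plasma membrane calcium pump, 147 to 194 CPM in KO and 153 to 198 CPM in WT (adjusted p = 0.94 and 0.911). For Trpv6, a related channel, there were 2 reads in KO and 8 in WT, a ratio of WT to KO of 2.87 with an interval of 0.573 to 27.7. No change was detectable at that depth. Of 12 genes of transcellular calcium transport tested, 1 was called lower and 0 higher, with a median of -0.02.

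No gene was called in the lists for phosphate transport (12 tested), claudins (12), or parathyroid hormone, FGF23 and calcium receptors (15). Their medians were -0.10, 0.02 and 0.01. The phosphate carrier Slc34a1 had 2238 to 2670 CPM in KO and 2439 to 2905 CPM in WT, a log2 fold change of -0.09 ± 0.09 (adjusted p = 0.79). Its relative Slc34a3 was 0.10 ± 0.17 and the widely expressed Slc20a2 -0.13 ± 0.33 (adjusted p = 0.89 and 0.936). Kl, the FGF23 co-receptor, was 0.01 ± 0.24, and Casr, the calcium-sensing receptor, 0.21 ± 0.28 (adjusted p = 0.992 and 0.841). Pth1r, the receptor of parathyroid hormone, had 484 to 545 CPM in KO and 546 to 762 CPM in WT. Those groups did not overlap, but the fold change of -0.35 ± 0.11 was not called (adjusted p = 0.136, but 0.0485 without AF2 4). Cldn2, a pore-forming claudin of the proximal tubule, had 206 to 300 CPM in KO and 308 to 359 CPM in WT (-0.41 ± 0.11, adjusted p = 0.0739). It was called in 7 of 22 alternatives, among them DESeq2 (0.0262) and the fits without KO 2 (0.0323) and without AF2 4 (0.016). Cldn14, a claudin that limits calcium flow, had 0 reads in KO and 1 in WT.

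Of 11 renin-angiotensin genes, 1 was called lower. Ace, angiotensin-converting enzyme, had 24.7, 29.2, 31.0 and 25.3 CPM in KO, against 38.7, 45.5 and 51.9 CPM in WT. The groups did not overlap (log2 fold change -0.72 ± 0.16, adjusted p = 0.0194), and the call was lost without WT 2, KO 1 or KO 4, to an adjusted p of up to 0.0962. Ren1, renin, had 125, 138, 154 and 270 CPM in KO. In WT it was 112 to 143 CPM in 5 libraries and 9.75 CPM in WT 3. Its log2 fold change of 0.71 ± 0.52 was not called (adjusted p = 0.7), and it ranged from 0.38 to 1.37 over the alternatives.

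Other large falls included a pair of transcription factors of the ETS family. Etv1 had 3.60, 2.47, 0.295 and 0.378 CPM in KO, against 12.3, 21.6 and 25.3 CPM as lowest, median and highest in WT, with no overlap (log2 fold change -3.71 ± 0.50, adjusted p = 0.000476). Etv5, its close relative, had 2.06, 3.29, 1.48 and 1.51 CPM in KO, against 3.36, 7.5 and 13.2 CPM in WT. KO 2 was just below the lowest WT library (-2.04 ± 0.41, adjusted p = 0.0087), and without KO 3 or KO 4 the adjusted p rose as high as 0.0548. Both factors are known to be induced by fibroblast growth factor and ERK signalling. Of 12 such factors and feedback genes tested, these 2 were called lower and 0 higher, with a median of -0.32. With the run as a term the same pair was called, while the median was -0.03 with 6 of 12 lower. Dusp6, an ERK phosphatase, had 62.3, 83.1, 29.2 and 34.8 CPM in KO, against 79.5 to 109 CPM in WT (-0.81 ± 0.28, adjusted p = 0.296). Spry1, Spry2 and Spry4, inhibitors of the same pathway, had fold changes of -0.28 to -0.46 and Ccnd1, a cyclin, 0.32, all without a call.

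Nepn, nephrocan, a leucine-rich repeat protein of the matrix, had 7.21, 3.29, 5.02 and 1.89 CPM in KO, against 14.3, 27.3 and 31.5 CPM in WT (log2 fold change -2.55 ± 0.32, adjusted p = 4.95e-05). The groups were separate, and the call held in all 22 alternatives. Gria3, a glutamate receptor subunit, had 1.51 to 9.27 CPM in KO and 15.2 to 24.7 CPM in WT (-2.0 ± 0.34, adjusted p = 0.00267). Agmo, which cleaves ether lipids, had 1.51 to 2.06 CPM in KO and 2.86 to 9.53 CPM in WT (-2.05 ± 0.40, adjusted p = 0.00643). Both were separate between groups and kept their calls in every fit with 1 library left out. Within the shared run neither was called (adjusted p = 0.151 for Gria3 and 0.0883 for Agmo). Spns3, a putative lipid transporter, had 0 to 3.09 CPM in KO and 2.89 to 12.9 CPM in WT, and Amz1, a metalloprotease, 1.77 to 3.40 CPM in KO and 4.32 to 10.02 CPM in WT (-2.65 ± 0.54 and -1.53 ± 0.34, adjusted p = 0.0114 and 0.0187). Gulo, the last enzyme of vitamin C synthesis, had 0 reads in KO and 71 in WT, at least 17.0-fold lower in KO against a floor of 3 reads over the group. WT 6 also had 0 CPM for Gulo, and the other 5 WT libraries did not. Gulo and Spns3 each lost the call without KO 3 or without KO 4 (adjusted p up to 0.0511 and 0.0863), and Amz1 without WT 5, KO 2 or KO 3 (up to 0.107).

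Of the 4 enzymes that break down histidine to glutamate, the 3 that passed the filter were all higher in KO. In pathway order after histidase, Uroc1, urocanate hydratase, had 68.5, 71.2, 70.5 and 83.2 CPM in KO, against 32.0, 37.8 and 43.6 CPM as lowest, median and highest in WT (log2 fold change 0.96 ± 0.12, adjusted p = 1.59e-05). Amdhd1, imidazolonepropionase, had 8.75, 8.23, 14.5 and 21.9 CPM in KO, against 0.560, 1.45 and 3.3 CPM in WT (2.99 ± 0.37, adjusted p = 3.89e-05). Ftcd, which passes the formimino group to tetrahydrofolate, had 9.27, 20.2, 26.3 and 15.1 CPM in KO, against 2.16, 5.29 and 5.78 CPM in WT (1.89 ± 0.26, adjusted p = 6.36e-05). The groups were separate for each of the 3, and each kept its call in all 22 alternatives, the shared run included. They were the only called members among 32 tested genes of histidine breakdown and folate one-carbon metabolism, whose median was 0.01. Enzymes of the folate cycle such as Shmt1 (0.02), Mthfd1 (0.05) and Aldh1l1 (-0.14) were not called. Hdc, which turns histidine into histamine, had 5.66, 5.35, 21.8 and 31.0 CPM in KO and 16.1 to 67.9 CPM in WT, with no call (-1.09 ± 0.64, adjusted p = 0.604).

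Of 16 genes of glutamine handling and gluconeogenesis, 3 were called higher and 1 lower in KO, beside 0.844% of all genes called. The list median was 0.05. Glul, glutamine synthetase, had 1163, 1444, 1739 and 1682 CPM in KO, against 652, 758 and 1087 CPM in WT (log2 fold change 0.91 ± 0.14, adjusted p = 0.000665). KO 1 was the closest to WT and still above WT 1, the highest of that group. Fbp1, fructose-1,6-bisphosphatase, had 872, 889, 1172 and 1139 CPM in KO, against 654, 714 and 807 CPM in WT (0.50 ± 0.10, adjusted p = 0.0105). Slc38a3, a glutamine transporter, had 39.6, 32.5, 38.1 and 33.3 CPM in KO, against 15.2, 18.7 and 36.4 CPM in WT (0.77 ± 0.19, adjusted p = 0.0367). Only WT 6 reached the KO range, and the Slc38a3 call was lost in 11 of 14 fits with 1 library left out, to an adjusted p of up to 0.163. Fbp1 lost its call without KO 3 or KO 4 (up to 0.117). Slc25a10, the mitochondrial dicarboxylate carrier, fell to 83.6 to 106 CPM in KO, against 117 to 159 CPM in WT (-0.56 ± 0.13, adjusted p = 0.0356), a call lost in 7 of the 14 fits (up to 0.168).

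Of 18 genes for proline, arginine and polyamine metabolism, 3 were called, beside 0.844% of all genes. Odc1, ornithine decarboxylase, which commits ornithine to polyamines, had 31.9, 19.8, 16.5 and 21.2 CPM in KO, against 40.1, 46.2 and 61.9 CPM in WT (log2 fold change -1.15 ± 0.20, adjusted p = 0.00233). Azin1, which protects it from degradation, had 58.4 to 65.4 CPM in KO and 75.1 to 111 CPM in WT (-0.50 ± 0.12, adjusted p = 0.0415). Arg2, the mitochondrial arginase that makes ornithine, had 30.4, 38.3, 35.7 and 30.3 CPM in KO, against 15.4, 19.8 and 24.2 CPM in WT (0.75 ± 0.16, adjusted p = 0.0179). None of the 3 overlapped between groups. Odc1 kept its call in all fits with 1 library left out, Arg2 lost it without KO 2, KO 3 or KO 4 (up to 0.107), and Azin1 in 9 of the 14 (up to 0.137). None of the 3 was called within the shared run (adjusted p = 0.266 for Odc1, 0.0738 for Arg2 and 0.6 for Azin1).

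**Figure D3:**
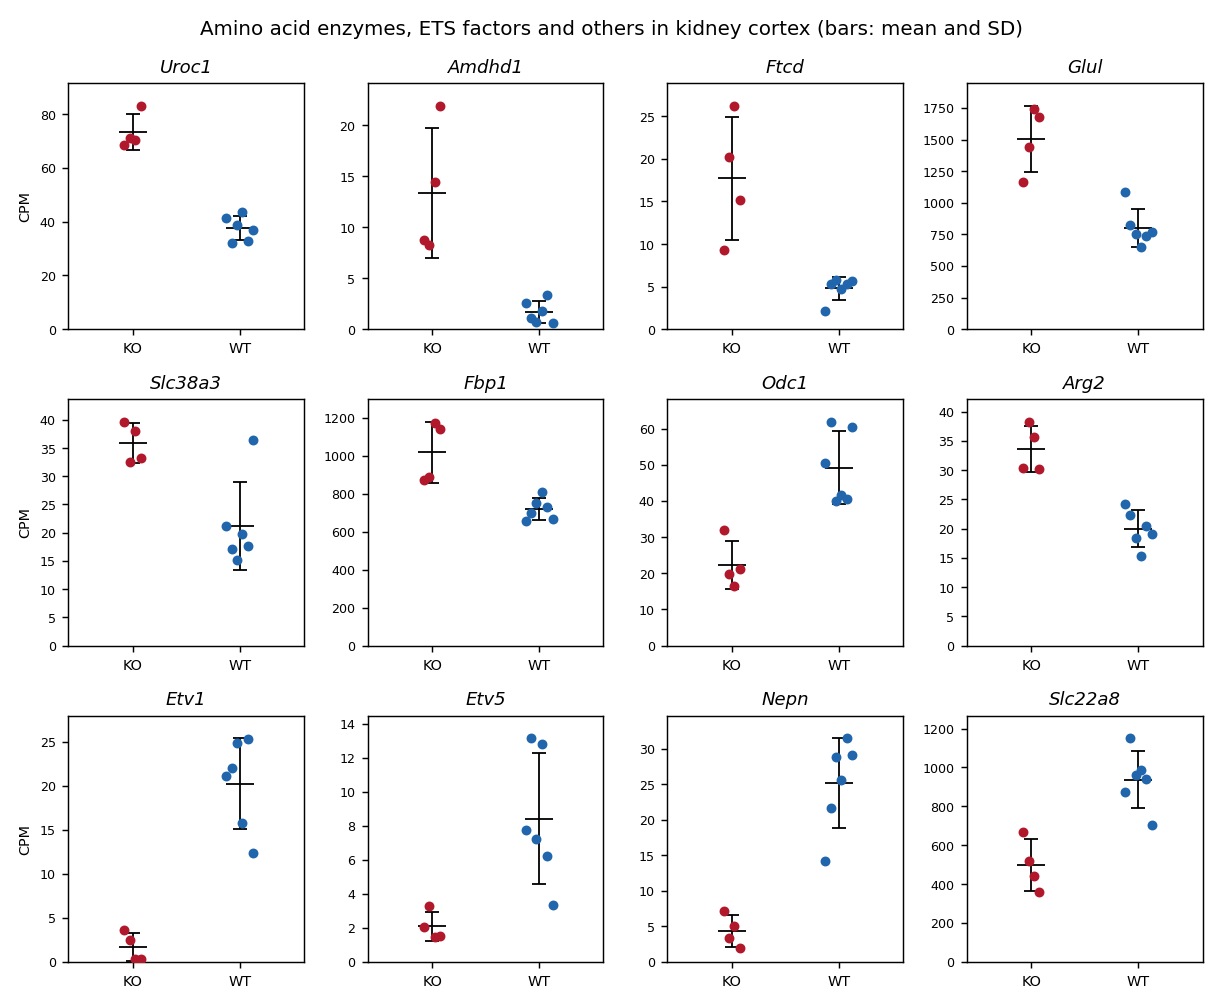
Points are single libraries in CPM on linear axes that start at 0, KO left and WT right, with the mean and SD. Histidine enzymes, Glul, Fbp1 and Arg2 are higher and Odc1, Etv1, Etv5, Nepn and Slc22a8 lower in KO with no overlap, while WT 6 lies among the KO libraries for Slc38a3.

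Markers of the proximal tubule moved in both directions. Slc22a8, the organic anion transporter OAT3, had 668, 521, 444 and 358 CPM in KO, against 706, 951 and 1151 CPM as lowest, median and highest in WT (log2 fold change -0.91 ± 0.14, adjusted p = 0.000747), and kept its call in all 22 alternatives. Abcc4, an apical exporter of organic anions, had 26.3 to 46.3 CPM in KO and 46.5 to 62.2 CPM in WT (-0.65 ± 0.16, adjusted p = 0.0477, lost in 9 of 14 fits with 1 library left out, up to 0.215). They were the 2 called among 22 organic ion transporters, whose median was -0.19. Slc22a6, the related OAT1, had 306 to 390 CPM in KO and 357 to 521 CPM in WT, with no call (-0.38 ± 0.11, adjusted p = 0.121). Acsm2, a medium-chain acyl-CoA synthetase of the early proximal tubule, rose to 1713, 1826, 2331 and 2398 CPM in KO, against 1157 to 1538 CPM in WT (0.58 ± 0.11, adjusted p = 0.00264, but 0.0512 without KO 4). Acy3, an aminoacylase, had 372 to 525 CPM in KO and 583 to 849 CPM in WT, and Aadat, a transaminase of lysine breakdown, 405 to 715 CPM in KO and 744 to 997 CPM in WT (-0.69 ± 0.12 and -0.66 ± 0.15, adjusted p = 0.00152 and 0.0285). The Aadat call was lost in 8 of the 14 fits (up to 0.101). The proximal tubule lists had 1 higher and 1 lower of 15 (segments S1 and S2) and 2 lower of 13 (segment S3), with a median of 0.03 each. The S1 and S2 median was -0.11 without KO 1, and the S3 median -0.27 without KO 3, so neither list had a direction that held. Slc7a13, an S3 amino acid transporter, had 1.03, 2.06, 5.31 and 40.5 CPM in KO and 0.733 to 2.13 CPM in WT, so its fold change of 3.01 ± 0.90 (adjusted p = 0.198) rested on KO 4.

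Among 34 cytochrome P450s, carboxylesterases and related enzymes, 1 was called higher and 3 lower, beside 0.844% of all genes called. The median was -0.02. Cyp2d9, a steroid hydroxylase known for higher levels in male than in female mouse liver, had 26.3, 30.5, 31.9 and 20.8 CPM in KO, against 2.13, 7.17 and 10.98 CPM in WT, with no overlap (log2 fold change 2.02 ± 0.29, adjusted p = 0.000655) and a call in all 22 alternatives. Cyp2d9 lies on chromosome 15, which also holds Vdr. Cyp4b1, a P450 that acts on fatty acids and xenobiotics, had 39.1, 17.3, 15.9 and 17.4 CPM in KO, against 75.1, 86.2 and 148 CPM in WT (-2.15 ± 0.38, adjusted p = 0.0245). KO 1 was above the other KO libraries and below every WT library. Cyp2a5, a coumarin hydroxylase, had 1.13 to 8.75 CPM in KO and 10.7 to 19.4 CPM in WT, and Ces2b, a carboxylesterase, 2.88 to 7.56 CPM in KO and 10.99 to 17.7 CPM in WT (-1.71 ± 0.39 and -1.23 ± 0.31, adjusted p = 0.0319 and 0.0477). Cyp4b1, Cyp2a5 and Ces2b lost their calls in 4, 6 and 9 of the 14 fits with 1 library left out (up to 0.121, 0.133 and 0.198). Members of these families share sequence, and how the authors treated reads that fit several copies is not given.

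Markers of the distal nephron, and those of podocytes, leaned upward with few calls. Slc12a1, the sodium-potassium-chloride cotransporter of the thick ascending limb, had 1088, 1372, 1185 and 1036 CPM in KO, against 691, 850 and 1014 CPM in WT, with no overlap (log2 fold change 0.45 ± 0.11, adjusted p = 0.0356). It was the 1 called of 13 in its list (median 0.28), and lost the call in 8 of 14 fits with 1 library left out (up to 0.239). Of 18 intercalated cell genes 16 had a higher mean in KO (median 0.26) and 0 were called. The nearest were Atp6v1g3, a proton pump subunit (0.52 ± 0.14, adjusted p = 0.0683), and Car12, a carbonic anhydrase (0.41 ± 0.11, adjusted p = 0.0738). Of 19 distal convoluted tubule genes 15 had a higher mean (median 0.21) and 0 were called. Trpm6, the magnesium channel, had 27.7 to 44.0 CPM in KO and 18.5 to 28.6 CPM in WT (0.63 ± 0.17, adjusted p = 0.0742). Podocyte genes had a median of 0.16 with 0 of 14 called, and principal cell genes of the collecting duct 0.15 with 0 of 17. The medians of these 5 lists ranged from 0.04 to 0.33 over the fits with 1 library left out, so no such fit turned their direction. Those fits share most of their libraries, and of all genes tested 50.6% had a log2 fold change below 0. The summed level overlapped between KO and WT in each of the 5 lists. For principal cell genes it was 6638 to 7814 CPM in KO and 5694 to 9428 CPM in WT. The list for medulla, papilla and thin limb also leaned upward, with a higher mean in 7 of 10 genes and a median of 0.29. That median was 0.002 to 0.52 over the same fits, and Cyp4b1, called lower, was its 1 call. How much medulla each piece held was not tested.

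Clock genes differed in KO in a manner that varied between libraries. Of 20 tested, 1 was called higher and 2 lower, beside 0.844% of all genes called, with a median of -0.30. Ciart, a repressor of the clock, had 2.06, 0.412, 0.885 and 0.378 CPM in KO, against 2.80, 4.77 and 10.8 CPM in WT (log2 fold change -2.62 ± 0.54, adjusted p = 0.0112). Tef, a clock output factor, had 267, 215, 244 and 155 CPM in KO, against 270, 316 and 348 CPM in WT (-0.49 ± 0.12, adjusted p = 0.0446). Clock itself had 56.1, 72.4, 79.7 and 82.1 CPM in KO, against 44.4, 50.003 and 58.8 CPM in WT (0.53 ± 0.13, adjusted p = 0.0361). Nr1d1, another repressor, had 45.3, 29.2, 4.13 and 1.13 CPM in KO and 32.1 to 50.5 CPM in WT, and Dbp, a relative of Tef, 95.8, 28.4, 23.3 and 16.3 CPM in KO and 74.5 to 152 CPM in WT. Neither was called (adjusted p = 0.642 and 0.206). KO 1 was nearest to WT in all 5 of these genes, and KO 4 farthest. The hour at which each kidney was taken is not given, so genotype and time of day cannot be told apart. Ciart lost its call without KO 2, KO 3 or KO 4 (up to 0.0625), and Tef and Clock in 8 of the 14 fits each (both up to 0.244).

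Of 25 fatty acid oxidation genes 20 had a higher mean in KO (median 0.23) and 1 was called. Without KO 2 the median was 0.02, with 12 of 25 lower and 0 called, and with the run as a term it was 0.12. Acaa2, a mitochondrial thiolase, had 297, 431, 396 and 417 CPM in KO, against 166, 225 and 263 CPM in WT, with no overlap (log2 fold change 0.81 ± 0.15, adjusted p = 0.0116), but was not called without KO 2, KO 3 or KO 4 (up to 0.0618). KO 2 was the highest KO library for Pdk4, Angptl4, Acot1 and Cyp4a10, and the reason was not tested. Pdk4, which shuts off glucose oxidation, had 0.515, 75.7, 4.13 and 4.16 CPM in KO and 2.20 to 5.60 CPM in WT. Angptl4, an inhibitor of lipoprotein lipase, had 7.21, 149, 25.1 and 35.5 CPM in KO and 6.91 to 20.3 CPM in WT (adjusted p = 0.428 and 0.223).

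Other large rises were seen in genes of unrelated function. Timd2, a receptor for ferritin, had 5.15, 4.53, 6.79 and 9.08 CPM in KO, against 0.954, 1.62 and 2.80 CPM in WT (log2 fold change 1.92 ± 0.40, adjusted p = 0.0114). Dpys, dihydropyrimidinase of pyrimidine breakdown, had 10.8, 28.4, 18.9 and 15.1 CPM in KO, against 4.48, 7.61 and 9.75 CPM in WT (1.33 ± 0.27, adjusted p = 0.00933). Col12a1, a collagen, had 5.76 to 8.32 CPM in KO and 1.47 to 5.04 CPM in WT, Pgm5, a phosphoglucomutase relative of cell junctions, 7.41 to 15.9 CPM in KO and 2.59 to 7.28 CPM in WT, and Tspan13, a tetraspanin, 18.02 to 23.8 CPM in KO and 8.40 to 14.8 CPM in WT (1.34, 1.23 and 0.90). These 5 were separate between groups. Ndrg1, a stress-responsive gene, had 1296, 2604, 2520 and 2773 CPM in KO, against 785, 1104 and 1376 CPM in WT (1.07 ± 0.22, adjusted p = 0.0415), with KO 1 inside the WT range. Ifitm1, an interferon-induced membrane protein, had 10.3 to 17.0 CPM in KO and 4.33 to 11.2 CPM in WT (0.95 ± 0.24, adjusted p = 0.0494). Ndrg1 and Ifitm1 lost their calls in 9 and 11 of the 14 fits with 1 library left out (up to 0.172 and 0.218), Col12a1 in 8 (up to 0.172), and Timd2, Tspan13 and Dpys in 2 each (up to 0.109, 0.0927 and 0.109). Pgm5 lost its call without KO 3 (0.19).

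Several calls with small p lie outside the rule by which genes were named and were chosen after their values were seen. Rdh16f2, of the retinol dehydrogenase family, had 136, 126, 109 and 84.0 CPM in KO, against 216, 258 and 284 CPM in WT (log2 fold change -1.16 ± 0.12, adjusted p = 7.78e-07). Aoah, which inactivates bacterial lipopolysaccharide, had 17.8 to 28.8 CPM in KO and 40.3 to 49.6 CPM in WT (-1.02 ± 0.15, adjusted p = 0.000287). Beta-defensins, antimicrobial peptides of epithelia, went opposite ways. Defb1 had 539, 571, 585 and 637 CPM in KO, against 324 to 442 CPM in WT (0.66 ± 0.10, adjusted p = 0.000376), and Defb29 35.9 to 41.7 CPM in KO and 67.4 to 109 CPM in WT (-1.09 ± 0.15, adjusted p = 7.94e-05). Ppp1r16b, a subunit that steers protein phosphatase 1, was -1.07 ± 0.16 (adjusted p = 0.000287). All 5 were separate between groups and were called in every alternative, the shared run included. They were picked for a small p, and the alternatives reuse the same libraries, so neither is separate support.

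Some of the changed genes lie near the targeted locus. Of 155 genes tested within 10 Mb of Vdr on chromosome 15, leaving out Vdr, 5 (3.23%) were called, beside 0.844% of all genes. They were Methig1, Mettl7a2, Smagp, Cela1 and Miox, 3 lower and 2 higher. Over all of chromosome 15, Vdr included, 11 of 534 genes tested (2.06%) were called. Cyp2d9, Tef, Ndrg1, Dpys and Azin1 were among them, at more than 10 Mb from Vdr. Methig1 had 2.06, 1.23, 0.590 and 0.756 CPM in KO, against 17.7, 27.8 and 33.7 CPM in WT (log2 fold change -4.62 ± 0.30, adjusted p = 2.97e-11). Mettl7a2, a methyltransferase-like gene, had 165, 151, 221 and 148 CPM in KO, against 26.3, 30.2 and 79.5 CPM in WT (2.17 ± 0.34, adjusted p = 0.0119, but 0.0548 without KO 3). The groups were separate in both, in opposite directions. Their annotations overlap on the plus strand, Methig1 at 100353149 to 100384436 and Mettl7a2 at 100353200 to 100361840 (GRCm38), so the assignment of reads between them is uncertain. The strain of the flanking DNA in KO and WT is not given. For the called genes of chromosome 15, an effect of the allele's neighbourhood and one of the receptor cannot be told apart.

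Antigen presentation genes had the lowest median of all lists, but this came with 1 library. All 15 genes tested had a lower mean in KO, with a median log2 fold change of -0.84, and 0 were called. H2-K1, a class I histocompatibility heavy chain, had 151, 149, 122 and 142 CPM in KO, while WT 1 had 1350 CPM and the other WT libraries 140 to 164 CPM. The summed level of the 16 listed genes was 1037 to 1262 CPM in KO, 6578 CPM in WT 1, and 1271 CPM in the median WT library. Without WT 1 the median was -0.13, with 11 of 14 lower, and the immune cell list went to a median of -0.01, against -0.53 with it. In WT 1 the class II genes Cd74 (701 CPM, against 55.2 to 80.7 CPM in the other WT libraries) and H2-Ab1 (844 CPM, against 77.9 to 105 CPM) were also high. The number of genes called was 119 without WT 1, beside 114 with it.

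**Figure D4:**
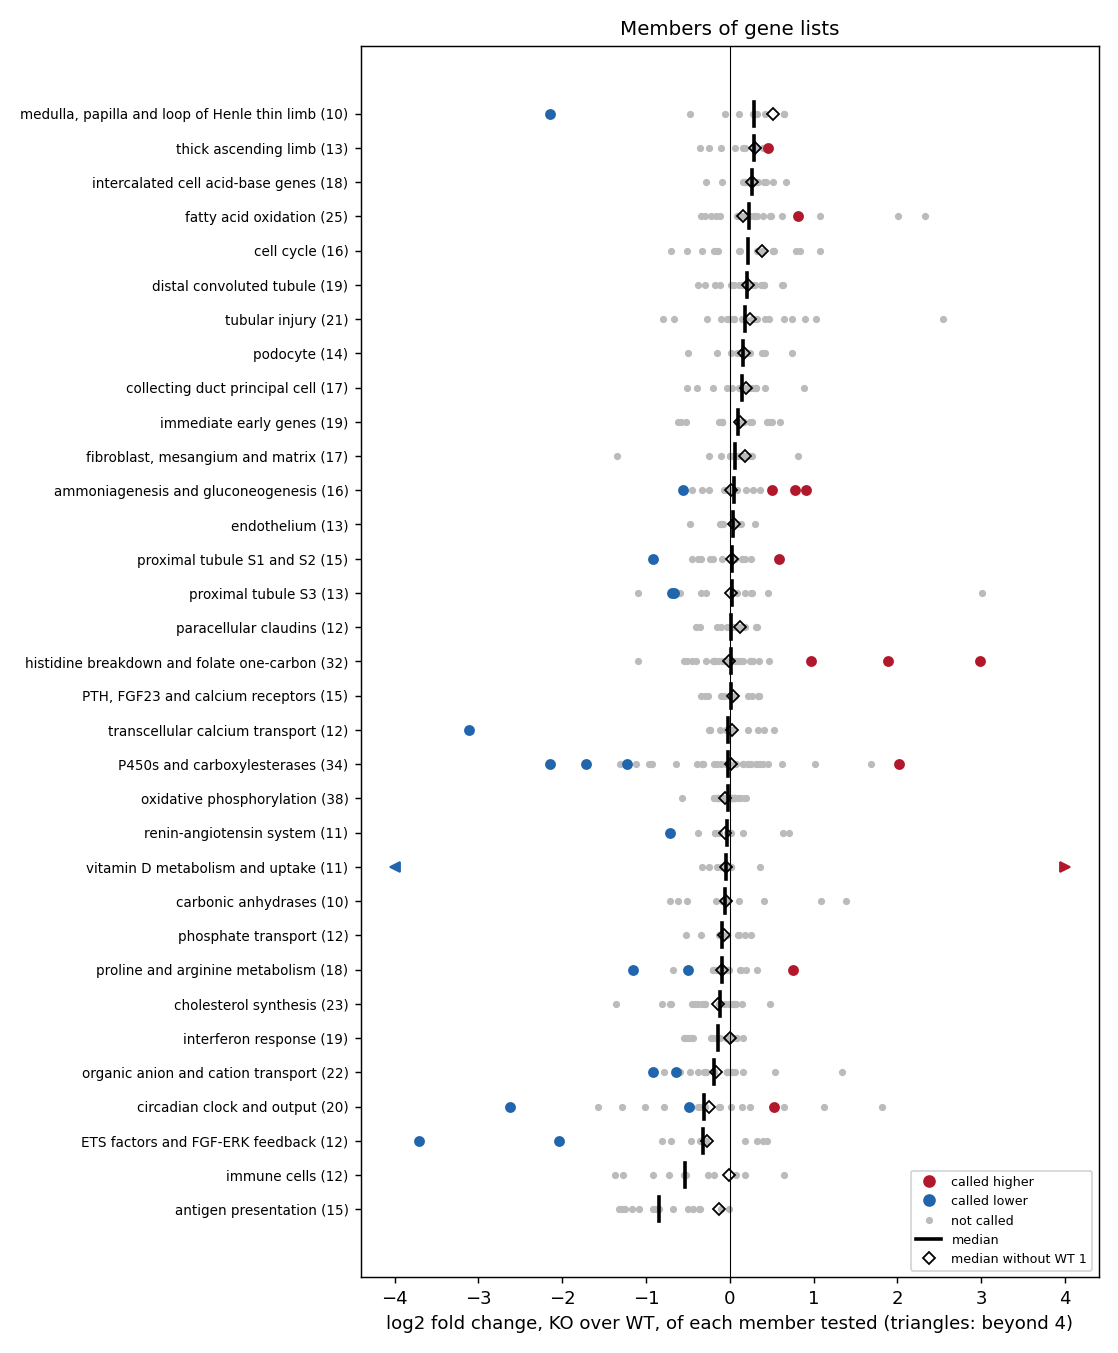
Each point is the log2 fold change, KO over WT, of 1 tested member of the list named at left, with the number tested in brackets. Coloured points are called, the black bar is the median, and the open diamond is the median without WT 1, which sits close to 0 for antigen presentation (-0.13) and immune cells (-0.01).

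In several large lists no member was called. These were nuclear subunits of oxidative phosphorylation (38 tested, median -0.03), cholesterol synthesis (23, -0.12), tubular injury (21, 0.19), interferon response (19, -0.14), cell cycle (16, 0.22), matrix and mesangium (17, 0.07), endothelium (13, 0.04) and carbonic anhydrases (10, -0.06). With 0.844% of all genes called, lists of this size would hold few calls in any case. The cell cycle median was -0.26 without KO 4. With the run as a term the medians were 0.42 for cell cycle, 0.36 for tubular injury, 0.36 for matrix and mesangium, 0.14 for carbonic anhydrases and -0.01 for cholesterol synthesis. Havcr1, a marker of injured proximal tubule, had 1.03, 3.29, 0.590 and 13.2 CPM in KO and 0 to 3.46 CPM in WT, with no call (adjusted p = 0.36).

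AF2 kidneys differed from receptor-null kidneys in a small set of genes, and Cyp24a1, at 0 to 0.467 CPM in AF2 and 0 to 0.412 CPM in KO, was near 0 in both. Of 13502 genes, 45 (0.333%) were called between AF2 and KO, 27 higher (0.2%) and 18 lower (0.133%) in AF2. Of the 45, 10 were also called between KO and WT, as were 0.844% of all genes. Both comparisons use the same KO libraries, so a shared call is no separate support. Vdr had 81.7, 85.0, 91.9 and 64.8 CPM in AF2, against 22.1, 21.0, 17.1 and 7.94 CPM in KO (log2 fold change, AF2 over KO, 2.26 ± 0.20, adjusted p = 1.29e-06). Cyp27b1 had 327, 294, 248 and 21.5 CPM in AF2 and 48.4 to 166 CPM in KO, with AF2 4 below every KO library (0.94, adjusted p = 0.614). S100g had 50.4 to 76.5 CPM in AF2 and 79.1 to 129 CPM in KO, Etv1 0.364 to 2.80 CPM in AF2 and 0.295 to 3.60 CPM in KO, and neither was called (adjusted p = 0.351 and 0.948). AF2 and KO libraries shared no run of library codes, so run and genotype cannot be told apart in a direct comparison. With the run as a term, which draws on WT libraries in both runs, 1 gene was called, Methig1.

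Among the genes called between AF2 and KO, all but Methig1 lost the call with the run as a term. Ide, insulin-degrading enzyme, had 27.1 to 36.9 CPM in AF2 and 64.6 to 75.2 CPM in KO (log2 fold change, AF2 over KO, -1.08 ± 0.17, adjusted p = 0.000925). Enpp6, a choline-releasing phosphodiesterase, had 40.4 to 67.6 CPM in AF2 and 92.2 to 124 CPM in KO, and Fitm1, which helps form lipid droplets, 5.04 to 7.97 CPM in AF2 and 11.3 to 27.8 CPM in KO (-0.95 ± 0.14 and -1.42 ± 0.25, adjusted p = 0.000293 and 0.00467). Calb1 had 287 to 328 CPM in AF2 and 399 to 685 CPM in KO (-0.69 ± 0.13, adjusted p = 0.0106), Slc5a8, a lactate transporter, was -0.82 ± 0.15, Ppp2r3a, a phosphatase subunit, -0.83 ± 0.13, and the pseudogene Cd63-ps -1.23 ± 0.22. Upward were Methig1 (5.53 ± 0.31), Smagp (0.97 ± 0.14), AC149090.1 (0.88 ± 0.17), Sema3g, a semaphorin (0.81 ± 0.16), Trip6, an adhesion protein (0.80 ± 0.15), Tef (0.72 ± 0.13) and Dgat2, of triglyceride synthesis (0.71 ± 0.13). None of these genes, Vdr included, overlapped between AF2 and KO libraries. They were chosen for a small p in this same comparison, so their separation is largely built in. The share of all genes without overlap is not given for AF2 and KO. Within 10 Mb of Vdr, 4 of 155 genes (2.58%) were called between AF2 and KO, beside 0.333% of all genes. They were Methig1, Smagp, Lima1 and Slc11a2, all higher in AF2, with Lima1 and Slc11a2 named after their values were seen. Over all of chromosome 15, Vdr included, 8 of 534 genes (1.5%) were called, Tef among them. The flanking DNA of the alleles and the receptor cannot be told apart here either.

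**Figure D5:**
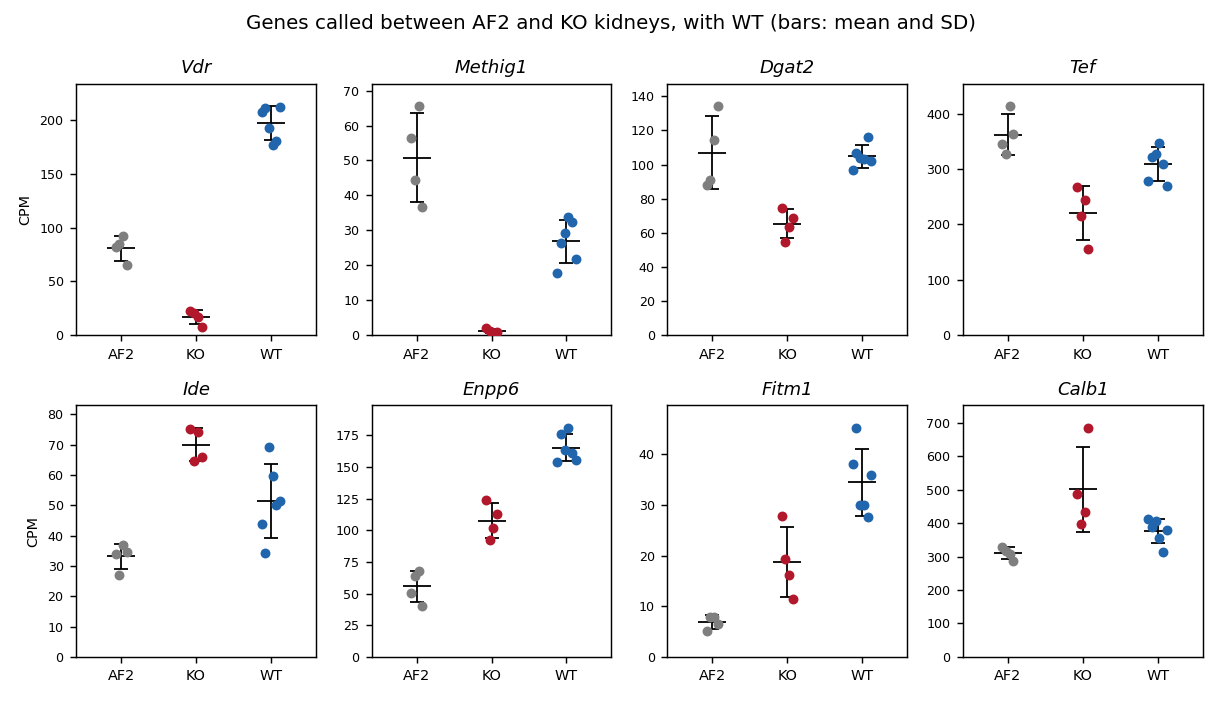
Points are single libraries in CPM on linear axes that start at 0, in the order AF2, KO and WT, with the mean and SD. AF2 libraries lie above KO for Vdr, Methig1, Dgat2 and Tef and below KO for Ide, Enpp6, Fitm1 and Calb1, with no overlap.

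The effect of receptor loss differed between kidney and duodenum for 8 of 14944 genes (0.0535%), 5 (0.0335%) with a higher and 3 (0.0201%) with a lower effect in kidney. S100g was -3.12 ± 0.31 in kidney and -0.06 ± 0.37 in duodenum, where it averaged 1629 CPM in KO and 1698 CPM in WT (difference -3.06 ± 0.54, adjusted p = 0.0401). Etv1 was -3.71 in kidney and -0.16 in duodenum (difference -3.54 ± 0.64, adjusted p = 0.0222). Aldh4a1, of proline breakdown, was 0.32 ± 0.12 in kidney without a call and -1.36 ± 0.21 in duodenum (difference 1.68 ± 0.27, adjusted p = 0.0123). Tspan13 differed by 0.98 ± 0.19, Slc37a2, a sugar-phosphate carrier, by 1.99 ± 0.40, Etnk1, of ethanolamine lipid synthesis, by 0.91 ± 0.19, Sulf2, a sulfatase, by 1.09 ± 0.22 and Pakap, an anchor of protein kinase A, by -0.79 ± 0.16. The adjusted p for these 5 was 0.0401 to 0.0428. The effects in kidney and duodenum were 0.90 and -0.08 for Tspan13, 0.97 and -1.01 for Slc37a2, and 0.47 and -0.44 for Etnk1. They were 0.62 and -0.47 for Sulf2, and -0.53 and 0.26 for Pakap. In kidney, Slc37a2 had 2.06 to 3.78 CPM in KO and 1.07 to 1.83 CPM in WT, without a call (adjusted p = 0.483). With the run of library codes as a term, S100g was the 1 of the 8 still called (-4.03, adjusted p = 0.0401). Etv1 kept a difference of -3.36 (adjusted p = 0.448), Aldh4a1 had 0.96 (0.749) and Sulf2 0.60 (0.828). This test rests on few libraries, with 0 genes called without kidney KO 3, 1 without kidney KO 4 and 23 without duodenum WT 4.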

How the data were processed

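RNA of kidney cortex was extracted with TRIzol, and 3′-end libraries were made with a QuantSeq kit, per the labels' protocols. The authors deposited raw counts per gene symbol and library, with no normalisation, per the file headers. Of tools and builds, the submitters' processing notes list limma 3.34.9 and mm10. The sources used here do not give the aligner, counter, strand setting or filters. Every count was even (0 odd values), so reads were taken as counts divided by 2, while tests used the deposited counts. Each column was matched to its sample by the library code. GENCODE vM21 (GRCm38) gave coordinates for 97.3% of 30227 symbols.

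All 14 kidney libraries entered 1 fit in edgeR 4.0.16 under R 4.3.3, with genotype as the only term, TMM scaling, filterByExpr, and two-sided robust quasi-likelihood F tests. Adjusted p-values are Benjamini-Hochberg over all genes tested, called under 0.05, and are edgeR's except where DESeq2 is named. Calls by DESeq2 and limma-voom use their own adjusted p, which DESeq2 takes after its own filter. SE is the size of the log2 fold change divided by the root of the F statistic. CPM use TMM-scaled totals. The tissue difference was an interaction in 1 fit of all 28 libraries. Alternatives were DESeq2 1.42.0, limma-voom (limma 3.58.1), RLE scaling, no filter, halved counts, replicate and library-code-run blocks, fewer groups, and each library left out. Steps were tested on simulated data.

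Members and lists were chosen with earlier results of these data known. Named were Vdr, 17 mineral genes, the called genes with the 15 largest rises and 15 largest falls (average log2 CPM 1 or more, no predicted-gene symbol), up to 5 called members of each of 38 lists, 8 genes each way for AF2 against KO and 5 each way for the interaction, and some genes within this rule are not reported here. Libraries of a group differed beyond sampling noise (smallest chi-square per degree of freedom 1.96). Replicate numbers did not pair libraries.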

Additional observations from a re-analysis of the deposited data

Results flagged for a closer look

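Among 172 group values examined for a library that stood far from the rest of its group, 12 did so, where chance gives about 1 in 20. The highest ones were Cyp24a1 in KO 2 (0.412 CPM, the others at 0) and in WT 1 (36.3 CPM, the others at most 17.9), Cldn14 in WT 2 (0.356 CPM, 1 read), Mettl7a2 in WT 1 (79.5 CPM), Cyp4b1 in KO 1 (39.1 CPM), Slc38a3 in WT 6 (36.4 CPM) and Ppp2r3a in KO 2 (150.2 CPM). The lowest ones were Slc20a2 in WT 4 (18.3 CPM), Ren1 in WT 3 (9.75 CPM, the others 112 to 143), Ftcd in WT 1 (2.16 CPM), Agmo in WT 5 (2.86 CPM) and Aadat in WT 4 (744 CPM). WT 1 accounts for 3 of the 12.

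The log2 effect of receptor loss differed between tissues, kidney minus duodenum, by the edgeR interaction test for Aldh4a1 (1.68), Tspan13 (0.98), Slc37a2 (1.99), Etnk1 (0.91), Sulf2 (1.09), Etv1 (-3.54), S100g (-3.06) and Pakap (-0.79).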

How the results depend on the processing

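Between KO and WT, 114 genes were called. DESeq2 called 220, the fit without a low-count filter 252, KO and WT libraries alone 177, and the fit with the run of library codes as a term 25. Leaving out each library gave 38 to 206. Between AF2 and KO, 45 were called, with 150 by DESeq2, 193 without the filter, 1 with the run term and 22 to 78 with a library left out. For the tissue difference, 8 were called, with 66 by DESeq2, 2 by limma-voom, 23 without the filter, 3 with the run term (1 of them among the 8) and 0 to 23 with a library left out. For the fit with 0 calls, without kidney KO 3, 1115 genes had an unadjusted edgeR p under 0.05. RLE scaling and halved counts stayed within 1.5 times in all 3. Of 1850 alternative values of named genes, 1502 kept direction and side of the threshold, 320 were no longer called, 13 became called, 15 without a call changed sign and 0 called ones did.

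The replicate number as a block gave 79, 52 and 9 calls, with 62 of the 79 among the 114. Deviations of same-numbered KO and WT libraries correlated at -0.036, -0.025, 0.037 and -0.002, and 1 of 4 KO libraries matched its own number best, so the numbers did not pair libraries.

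Genes with a few reads per library, such as Trpv6, Cldn14 and Gulo, are limited by depth. In the absence of molecular identifiers, counting intervals leave out amplification error.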
